A study of Mus musculus with 6 samples.

Results

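The genes described here are Ctcfl, its paralog Ctcf, and 8 genes of the cohesin complex and of its handling: Smc1a, Smc3, Rad21, Stag1, Stag2, Nipbl, Wapl and Esco2. They were chosen by name and by no cutoff on measured values, but with earlier results of these data known. Every probe set that the array's annotation gives to these symbols alone was taken. This gave 10 probe sets, 1 for each gene, out of 34760 probe sets in the table and 19937 named genes. The expression of all of them was read in mouse embryonic stem (ES) cells on 1-colour Affymetrix Mouse Gene 1.0 ST arrays. The 3 FLAG-CTCFL samples came from cells stably transfected with a vector for FLAG-tagged mouse CTCFL, and the 3 control vector samples from cells with the control vector. Cells of both groups were male, of 129P2/OlaHsd background, cloned from 46C, a line with GFP knocked into the Sox1 gene, and were grown in medium with 10% serum under 1 ug/ml puromycin. The design text calls the 3 samples of a group biological replicates, but the labels do not say which promoter drives the construct or how many separately transfected clones each group holds. If replicates share a clone, p-values measure the spread between cultures and not between clones. The series is concerned with CTCFL and cohesin at active promoters.

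CTCF is a zinc finger protein that binds insulators and many promoters and halts cohesin as it draws DNA into loops. CTCFL, also called BORIS, has nearly the same zinc fingers but different ends, and is normally made in male germ cells. Cohesin is a ring of Smc1a, Smc3 and Rad21 to which either Stag1 or Stag2 binds. Nipbl loads the ring onto DNA, Wapl releases it, and Esco2 acetylates Smc3 during DNA replication so that sister chromatids stay joined.

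In FLAG-CTCFL cells Ctcfl was 10.9-fold higher and Stag1 1.31-fold higher than in control vector cells, while Esco2 and Wapl were lower, at 0.58 and 0.88 of the control vector level. Ctcf and the ring genes Smc1a, Smc3 and Rad21, Stag2 and the loader Nipbl did not pass the test with the values as deposited. The test was limma's moderated test over all 19937 genes, with a threshold of 0.05 on the Benjamini-Hochberg adjusted p. Of the 10 genes 4 were thus called, against 30.9% of all genes, with 2 higher and 2 lower, against 12.5% and 18.4%. Ctcfl, which the vector carries, is among the higher calls and the genes without overlap in every count given here. Its part in these counts was set by the design. Among the 4985 genes of highest mean signal, nearer to the signal of most of the 10 genes and called bright genes below, 48.6% were called, 17.6% higher and 31.0% lower. After quantile normalization 5 of the 10 were called higher and 1 lower, against 19.8% and 16.6% of all genes. With each array centred on its bright genes 4 were called higher and 1 lower, against 15.6% and 12.2%. The arrays of the groups did not overlap for 4 of the 10 genes, against 41.3% of all genes. With that centring, chosen after the values were seen, the arrays did not overlap for 8 of the 10 genes, against 41.8% of all genes. The share of bright genes without overlap was not computed, although the centring is built on such genes. The counts thus lay near the all-gene shares with the values as deposited. The higher calls exceeded their share after quantile normalization and after the centring on bright genes. The non-overlap exceeded its share after that centring, and was not computed after quantile normalization. No test was made of either excess.

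A feature of the arrays bears on all values below. FLAG-CTCFL replicate 2 gave the lowest signal of its group for 10 of the 10 genes, and FLAG-CTCFL replicate 1 the highest for 10 of 10. Over the other 4975 bright genes replicate 2 was lowest for 77.1%, and over all genes for 37.7%. The median log2 signal of these bright genes was 10.43, 10.30 and 10.37 in FLAG-CTCFL replicates 1, 2 and 3, against 10.44, 10.44 and 10.41 in the control vector replicates, although the medians over all genes were 8.20, 8.25 and 8.22 against 8.24, 8.23 and 8.25. When each array was centred on the median of its bright genes, a setting chosen after the values were seen, the spread between replicates shrank for 10 of 10 genes, and its median SD was 0.041 instead of 0.0785 log2 units. Quantile normalization gave a more positive log2 fold change for each of the 10 genes than the deposited values did. The centring did so by construction, because it shifts the fold change of every gene on the arrays by the same amount. Calls near the threshold change with the setting, as given below for each of the 10 genes and in part for other genes. Beyond these settings, the part of array scaling in the results was not tested. In the fit with array weights, used as an alternative below, FLAG-CTCFL replicate 3 had a weight of 5.77. Replicates 1 and 2 had 0.414 and 0.321, so the FLAG-CTCFL side of that fit rests mostly on 1 array.

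**Figure D1:**
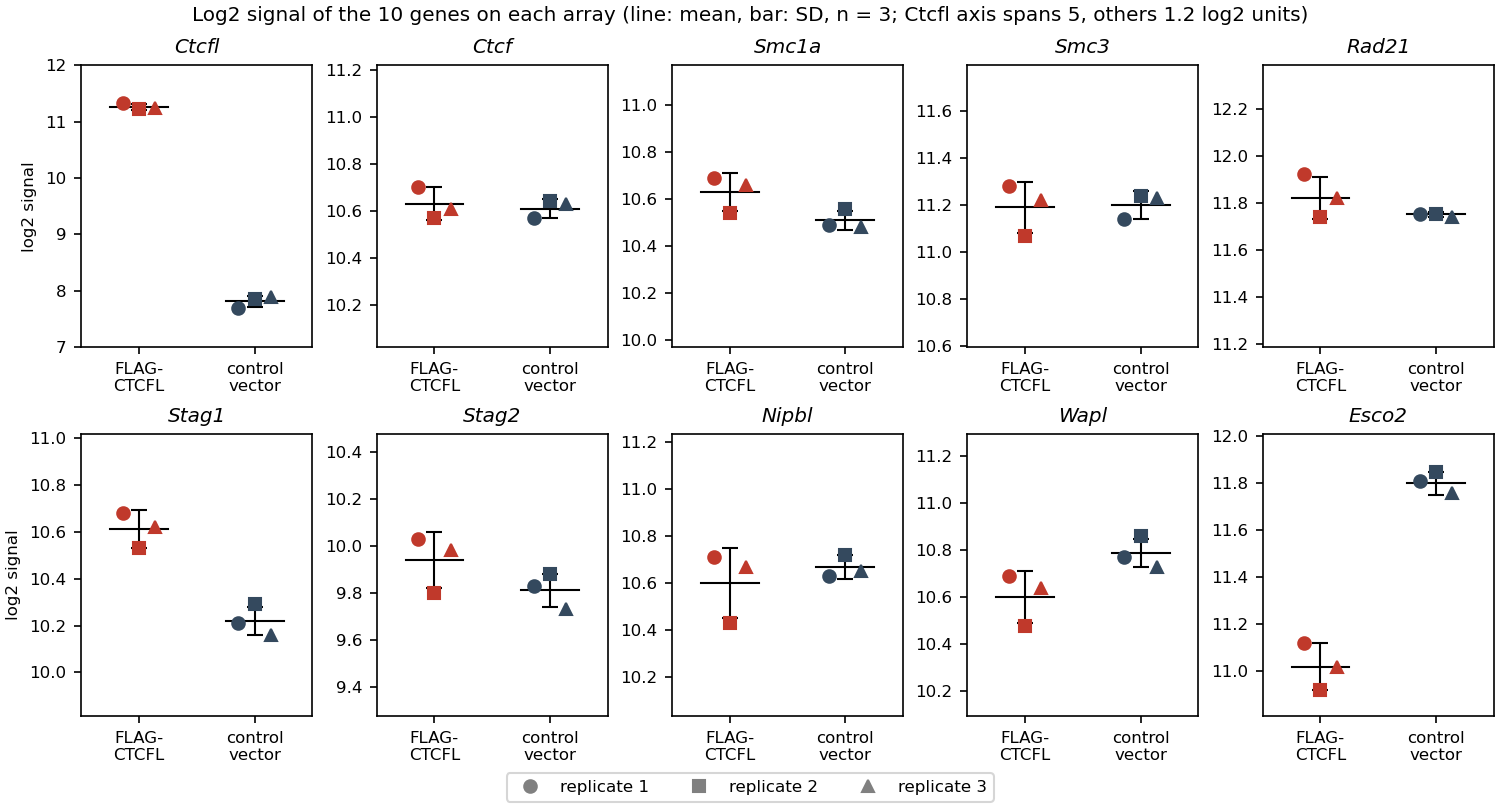
Log2 signal (vertical axis) of each gene on each of the 6 arrays, with FLAG-CTCFL in red on the left and control vector in dark blue on the right of each panel; lines are group means and bars the SD (n = 3). The squares of FLAG-CTCFL replicate 2 are the lowest of their group in 10 of 10 panels, and the groups are apart for Ctcfl, Stag1, Wapl and Esco2.

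Ctcfl is the gene that the vector carries. Its log2 signal was 11.33, 11.22 and 11.24 on the FLAG-CTCFL arrays, against 7.70, 7.85 and 7.89 on the control vector arrays. All FLAG-CTCFL arrays stood more than 3 log2 units above every control vector array. The difference was 3.45 ± 0.05 (SE, n = 3 per group; limma adjusted p = 6.15e-13), with a 95% interval of 3.33 to 3.57, or 10.1-fold to 11.9-fold. As a scale for absence, the 95th percentile of the mean signals of 1190 olfactory and vomeronasal receptor genes was 7.63, and the 3 control vector values of Ctcfl lie just above it. The construct codes for the mouse protein, so transcripts of the vector and of the cells' own Ctcfl gene cannot be told apart by this probe set. In bulk RNA, fewer cells that express a gene and less RNA of it per cell cannot be told apart either.

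The 20 measured genes closest to Ctcfl along chromosome 2, 10 on either side, did not share its rise. Their log2 fold changes ran between -0.73 and 0.18 with a median of 0.04, and 2 were called higher and 2 lower. The genes whose pattern over the 6 arrays was most like that of Ctcfl were the imprinted gene Mest, Stra8, needed by germ cells to enter meiosis, and Rhox13, a homeobox gene on chromosome X. Likeness was the root mean square difference of the log2 values after each gene was centred on its own mean. It was 0.19 for Mest, 0.58 for Stra8 and 0.63 for Rhox13, and only Mest thus came near the size of the Ctcfl step. Of 3 testis genes linked to CTCFL in the literature, all rose, against 12.5% of all genes: Stra8 by 2.34, Prss50, which codes for a testis protease, by 1.37 and Gal3st1, a sulfotransferase of germ cell glycolipids, by 0.26 (limma adjusted p of at most 0.00108). These genes were listed with earlier results of these data known, so their count is no independent support. Gal3st1 lay close to the background level of 7.63, at a mean of 8.07 in FLAG-CTCFL cells, against 7.81 in control vector cells.

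Ctcf, whose product shares binding sites with CTCFL, showed no call. Its log2 signal was 10.70, 10.57 and 10.61 in FLAG-CTCFL cells, against 10.57, 10.64 and 10.63 in control vector cells. The groups overlapped. The difference was 0.01 ± 0.05 (SE, limma adjusted p = 0.88), and its 95% interval of -0.09 to 0.12 spans 0.941-fold to 1.08-fold. After quantile normalization it was 0.09 (adjusted p = 0.0998), with an interval of 0.00 to 0.17. The log2 ratio of Ctcfl to Ctcf within an array, set to a mean of 0 in control vector arrays, was 3.43, 3.44 and 3.44 in the FLAG-CTCFL arrays, against -0.07, 0.01 and 0.06. Such a ratio removes any shift that both probe sets share on an array, and the FLAG-CTCFL replicates then lay within 0.01 (SD) of each other.

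The promoters of Ctcf, Stag1 and Wapl are shown because these genes stand for the outcomes with the values as deposited: no call, a rise and a fall. The Wapl call did not hold under several alternatives given below. For Esco2, whose fall held under every alternative run, no window was at hand. RefSeq windows on GRCm38.p6, of 250 bases before and 50 after a start site, were at hand for 5 of the 10 genes (Ctcf, Stag1, Wapl, Smc3 and Smc1a). The 100 bases just before the start, all on the plus strand, are chr8:105636438-105636537 for Ctcf, chr9:100643348-100643447 for Stag1 and chr14:34673828-34673927 for Wapl. Capitals mark CpG dinucleotides.
Ctcf: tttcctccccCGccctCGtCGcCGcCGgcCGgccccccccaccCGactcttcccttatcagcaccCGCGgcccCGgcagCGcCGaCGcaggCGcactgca
Stag1: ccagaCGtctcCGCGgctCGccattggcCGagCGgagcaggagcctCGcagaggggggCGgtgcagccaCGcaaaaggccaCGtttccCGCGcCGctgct
Wapl: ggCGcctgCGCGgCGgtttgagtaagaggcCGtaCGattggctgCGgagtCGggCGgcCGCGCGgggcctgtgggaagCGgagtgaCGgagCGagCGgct
The printed stretches hold 14, 13 and 16 CpG dinucleotides. In the full windows the counts were 47 for Ctcf, 43 for Stag1, 35 for Wapl, 32 for Smc3 and 23 for Smc1a, against a median of 7 and a 75th percentile of 20 over all 32851 windows. All 5 thus are rich in CpG whether or not the gene was called with the values as deposited.

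Stag1, which takes the place of Stag2 in part of the cohesin rings, was the sole cohesin gene of the 10 that rose with the values as deposited. Its log2 signal was 10.68, 10.53 and 10.62 in FLAG-CTCFL cells, against 10.21, 10.29 and 10.16 in control vector cells. The lowest FLAG-CTCFL array lay above the highest control vector array. The rise was 0.39 ± 0.05 (SE, n = 3 per group; limma adjusted p = 5.67e-05), with a 95% interval of 1.21-fold to 1.42-fold, and passed under every alternative setting run.

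Stag2 is X-linked and codes for the other form of this subunit. It gave 10.03, 9.80 and 9.98 in FLAG-CTCFL cells, against 9.83, 9.88 and 9.73 in control vector cells. The groups overlapped, because FLAG-CTCFL replicate 2 read below 2 control vector arrays. The difference was 0.12 ± 0.06 (SE, limma adjusted p = 0.154, 95% interval -0.01 to 0.25). It passed without FLAG-CTCFL replicate 2 (0.19, adjusted p = 0.00996), after quantile normalization (0.21, adjusted p = 0.00206), after centring on the bright genes (0.18, adjusted p = 0.0251) and with array weights (0.16, adjusted p = 0.0039). Without FLAG-CTCFL replicate 1 it was 0.08 (adjusted p = 0.375), and without control vector replicate 3 also 0.08 (adjusted p = 0.445). The log2 ratio of Stag1 to Stag2 within an array, less the control vector mean, was 0.25, 0.31 and 0.24 in FLAG-CTCFL cells, against -0.02, 0.00 and 0.02 in control vector cells. Stag1 signal thus differed by more than Stag2 signal on each FLAG-CTCFL array, by 0.27 ± 0.04 (SD, n = 3) on average, and a shift common to a whole array leaves this ratio as it is.

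The genes nearest to Stag1 on chromosome 9 moved little as a group. The median fold change of the 20 neighbours was 0.06, with 4 called higher and 2 lower, and 18 of 20 had a smaller fold change than Stag1. The genes most like Stag1 in pattern were Sox11, a transcription factor of neural progenitors (0.0173 root mean square difference over 6 arrays), Lrpprc, which binds mitochondrial RNA (0.0199), and Ccdc124 (0.0209).

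The ring genes Smc1a, Smc3 and Rad21 were not called with the values as deposited, and their intervals leave room for small changes. Smc1a, an X-linked gene for an arm of the ring, gave 10.69, 10.54 and 10.66 in FLAG-CTCFL cells, against 10.49, 10.56 and 10.48 in control vector cells. FLAG-CTCFL replicate 2 alone overlapped the control vector range. The difference was 0.12 ± 0.05 (SE, limma adjusted p = 0.0846, 95% interval 0.01 to 0.23). It passed without FLAG-CTCFL replicate 2 (0.17, adjusted p = 0.0119), after quantile normalization (0.19, adjusted p = 0.00139), after centring on the bright genes (0.18, adjusted p = 0.0173) and with array weights (0.14, adjusted p = 0.00253). Without FLAG-CTCFL replicate 1 it was 0.09 (adjusted p = 0.205).

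Smc3, the other arm and the one that Esco2 acetylates, gave 11.28, 11.07 and 11.22 in FLAG-CTCFL cells, against 11.14, 11.24 and 11.23 in control vector cells. The FLAG-CTCFL arrays spread across and beyond the control vector range. The difference was -0.01 ± 0.06 (SE, limma adjusted p = 0.921, 95% interval -0.13 to 0.11), and 0.06 after quantile normalization (adjusted p = 0.288). The ratio of Smc1a to Smc3 within an array, less the control vector mean, was 0.10, 0.16 and 0.13 in FLAG-CTCFL cells, against 0.04, 0.01 and -0.05 in control vector cells. These ratios did not overlap between groups, although the step of 0.13 is small and the share of other gene pairs without overlap was not computed.

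Rad21, the subunit that closes the ring and is cut at anaphase, gave 11.92, 11.74 and 11.82 in FLAG-CTCFL cells, against 11.75, 11.75 and 11.74 in control vector cells. Replicates 1 and 3 of FLAG-CTCFL stood above the control vector arrays and replicate 2 among them. The difference was 0.08 ± 0.05 (SE, limma adjusted p = 0.299, 95% interval -0.03 to 0.19), and passed after quantile normalization alone (0.16, adjusted p = 0.0032). Without FLAG-CTCFL replicate 1 it was 0.03 (adjusted p = 0.692), and without replicate 2 it was 0.12 (adjusted p = 0.0586). The ratio of Rad21 to Smc3 overlapped between groups, and so did that of Stag2 to Rad21. That of Stag1 to Rad21 did not, at 0.29, 0.32 and 0.33 in FLAG-CTCFL cells, against -0.02, 0.06 and -0.05 in control vector cells.

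**Figure D2:**
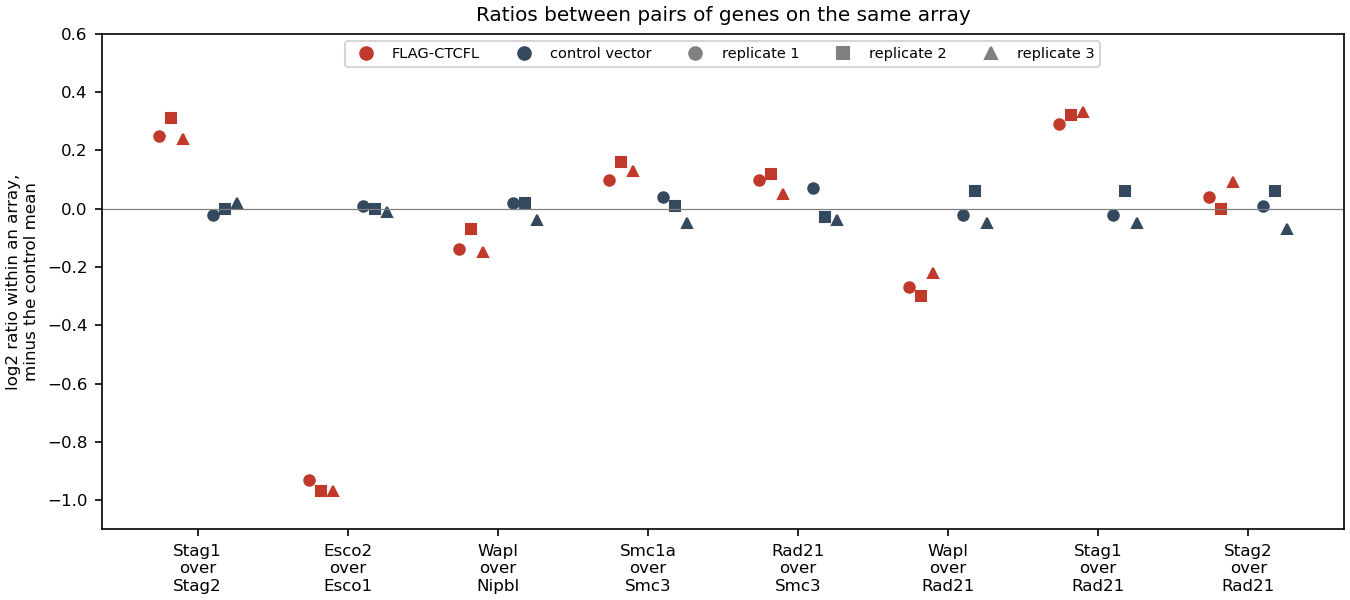
Log2 ratio of a pair of genes on the same array, less the mean of the control vector arrays (vertical axis), for 8 pairs; red points are FLAG-CTCFL and dark blue points control vector arrays, and the symbol gives the replicate. Stag1 over Stag2 lies between 0.24 and 0.31 in FLAG-CTCFL cells, and Esco2 over Esco1 near -0.96.

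Nipbl, the loader, gave 10.71, 10.43 and 10.67 in FLAG-CTCFL cells, against 10.63, 10.72 and 10.65 in control vector cells. The SD of the FLAG-CTCFL group, 0.15, was the widest of the 10 genes, and replicate 2 was its low value. The difference was -0.06 ± 0.07 (SE, limma adjusted p = 0.54, 95% interval -0.21 to 0.08). It was 0.02 without that array. Mau2, its partner in loading, did not pass either (-0.12 ± 0.05, adjusted p = 0.0757).

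Wapl, the release factor, gave 10.69, 10.48 and 10.64 in FLAG-CTCFL cells, against 10.77, 10.86 and 10.73 in control vector cells. The groups did not overlap, but FLAG-CTCFL replicate 1 and control vector replicate 3 lay close together. The fall was 0.18 on the log2 scale (limma log2 fold change -0.18 ± 0.06, SE; adjusted p = 0.0252; 95% interval 0.807-fold to 0.959-fold). The call did not hold without FLAG-CTCFL replicate 2 (-0.12, adjusted p = 0.0706), without control vector replicate 1 (-0.19, adjusted p = 0.0584) or 2 (-0.15, adjusted p = 0.128), after quantile normalization (-0.11, adjusted p = 0.0605), after centring on array medians (-0.17, adjusted p = 0.0872) or on the bright genes (-0.13, adjusted p = 0.108), or with no variance shared between genes (adjusted p = 0.177). Relative to Rad21 on the same array, Wapl stood at -0.27, -0.30 and -0.22 in FLAG-CTCFL cells, against -0.02, 0.06 and -0.05 in control vector cells. Relative to Nipbl it stood at -0.14, -0.07 and -0.15, against 0.02, 0.02 and -0.04. Both ratios were apart between groups, which does not restore the call. How often the ratios of other gene pairs are apart was not computed for any pair given here. Its 20 neighbours on chromosome 14 had a median fold change of -0.02, with 2 called higher and 4 lower. The genes most like Wapl in pattern were Slf1, which works with the Smc5/6 complex (0.013 root mean square difference over 6 arrays), Pik3r4, a subunit of a lipid kinase complex of autophagy (0.0137), and Nudcd1 (0.0161).

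**Figure D3:**
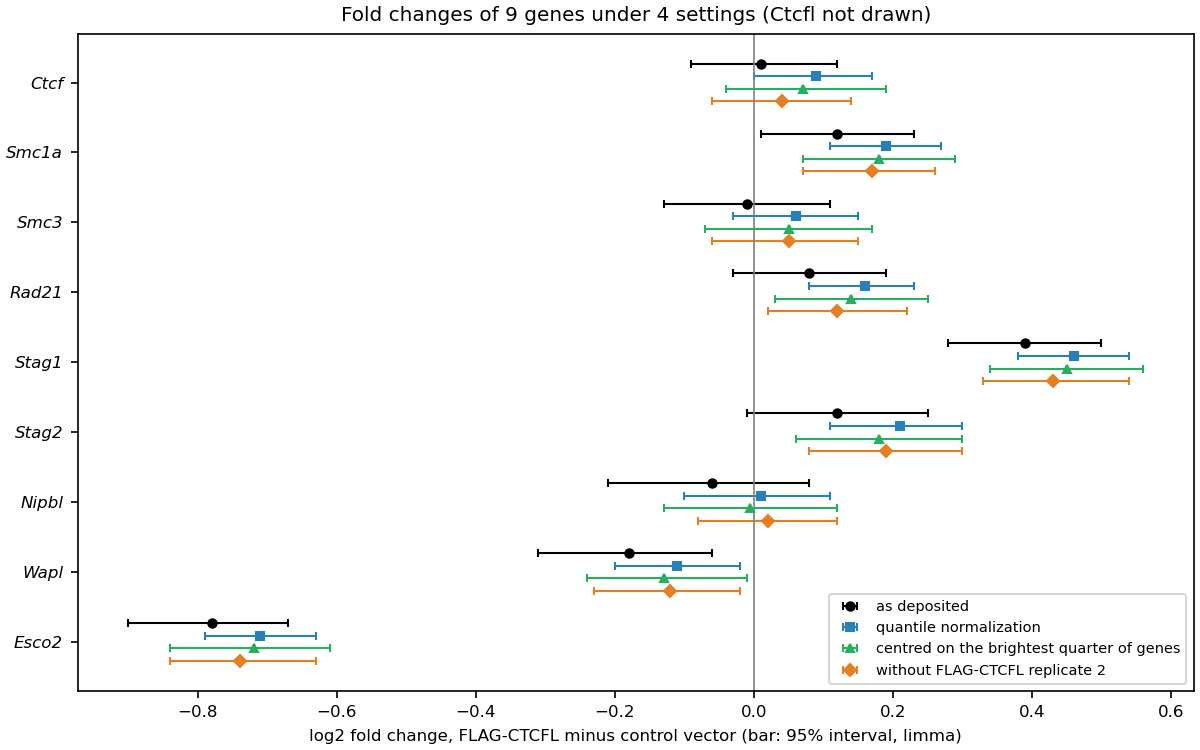
Log2 fold change of 9 genes (horizontal axis, FLAG-CTCFL minus control vector, with 95% limma intervals) with the values as deposited, after quantile normalization, after centring on the bright genes and without FLAG-CTCFL replicate 2. The 3 other settings place every point to the right of the deposited one, and Stag1 and Esco2 stay clear of 0 in all 4. For the centring, and for leaving out the lowest FLAG-CTCFL array, the move to the right was fixed in advance.

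Esco2, the replication-linked acetyltransferase of Smc3, had the clearest fall of the 10 genes. Its log2 signal was 11.12, 10.92 and 11.02 in FLAG-CTCFL cells, against 11.81, 11.85 and 11.76 in control vector cells. Every FLAG-CTCFL array lay well below the lowest control vector array. The log2 fold change was -0.78 ± 0.05 (SE, n = 3 per group; limma adjusted p = 1.38e-07), which places the level between 0.536 and 0.629 of the control vector level, and it passed under every alternative setting run. Esco1, which acetylates Smc3 outside replication, gave 9.81, 9.65 and 9.74 in FLAG-CTCFL cells, against 9.56, 9.61 and 9.52 in control vector cells. Its difference was 0.17 ± 0.05 (SE, limma adjusted p = 0.0169), and a second, dimmer probe set gave 0.22 ± 0.06. The Esco1 call was lost without FLAG-CTCFL replicate 1 (adjusted p = 0.0522) or 3 (0.0608) and without control vector replicate 1 (0.0552) or 3 (0.081). It was also lost with no variance shared between genes (0.104). The ratio of Esco2 to Esco1 within an array was -0.93, -0.97 and -0.97 in FLAG-CTCFL cells, against 0.01, 0.00 and -0.01 in control vector cells.

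Genes around Esco2 on chromosome 14 were lower too. Of its 20 neighbours 11 were called lower and 0 higher, with a median log2 fold change of -0.34 and a range of -1.85 to 0.10. Esco2 lay 0.45 below that median, and 2 of the 20 neighbours had a larger fall. None of the other 9 genes had neighbours with a median beyond 0.06 in size. The genes most like Esco2 in pattern were Anxa6, which codes for an annexin (0.0257 root mean square difference over 6 arrays), Tnfrsf10b, a death receptor gene (0.0291), and Rnf17, a gene of the germ cells (0.0291). Tnfrsf10b and Rnf17 also lie on chromosome 14. The part of this chromosome stretch in the fall of Esco2 was not tested.

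**Figure D4:**
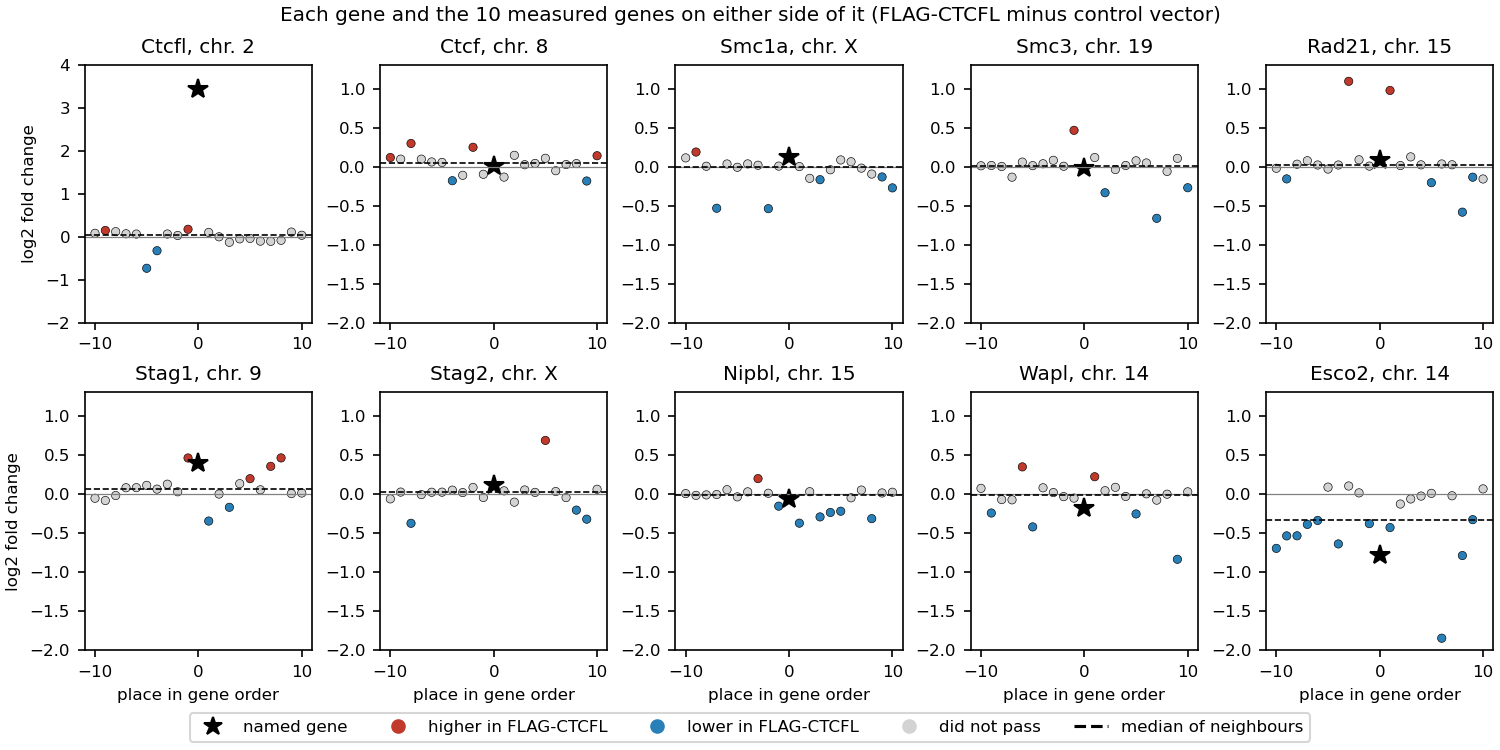
Log2 fold change (vertical axis, FLAG-CTCFL minus control vector) of each gene (star) and of the 10 measured genes on either side of it, by place in gene order along the chromosome (horizontal axis). Red points were called higher, blue points lower, and the dashed line is the median of the neighbours, which is -0.34 around Esco2 and between -0.02 and 0.06 around the other 9 genes.

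Of 16 further genes that load, lock, guard or cut cohesin, 2 were called higher and 5 lower, with a median log2 fold change of -0.03, against 0.0037 over all genes. The shares stand beside 12.5% and 18.4% of all genes, and 17.6% and 31.0% of the bright genes, whose signal is nearer to theirs. Besides Esco1, the rise was in Chtf8, a subunit of the alternative clamp loader that serves cohesion, with 10.62, 10.50 and 10.56 in FLAG-CTCFL cells, against 10.34, 10.36 and 10.33 in control vector cells (0.21 ± 0.05, SE; limma adjusted p = 0.00248). Its partners Chtf18 (0.09) and Dscc1 (-0.09) did not pass. The widest fall was in Wdhd1, a replisome hub that recruits cohesion factors. It gave 9.86, 9.76 and 9.81 in FLAG-CTCFL cells, against 10.74, 10.80 and 10.70 in control vector cells (-0.94 ± 0.05, SE; adjusted p = 7.51e-09). Hdac8, the deacetylase of Smc3, gave 8.02, 7.99 and 8.02 in FLAG-CTCFL cells, against 8.57, 8.63 and 8.53 in control vector cells (-0.56 ± 0.04, SE; adjusted p = 4.39e-07).

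Both of these falls lay among lowered neighbours, which were looked at after their values were seen. Around Wdhd1, on chromosome 14, 14 of 20 neighbours were called lower and 0 higher, with a median of -0.51. Around Hdac8, on chromosome X, 10 were called lower and 1 higher, with a median of -0.17. Smaller falls were called in Pttg1, or securin, which holds back the cohesin-cutting protease (-0.24, adjusted p = 0.00142, and -0.16 after quantile normalization), in Sgo1, which guards cohesin at centromeres (-0.20, adjusted p = 0.0313), and in Ddx11, a helicase of cohesion (-0.17, adjusted p = 0.0408). The Sgo1 call was lost when any single array but FLAG-CTCFL replicate 1 was left out (adjusted p between 0.0569 and 0.125). That of Ddx11 was lost without FLAG-CTCFL replicate 2 (0.114) or 3 (0.108), or without control vector replicate 1 (0.0637) or 2 (0.207). Separase, coded by Espl1 (0.03), the kinase Plk1 (0.05), the Wapl partners Pds5a (-0.07) and Pds5b (0.10), and sororin, coded by Cdca5 (-0.002), did not pass. The counts of the list moved with the array scaling, to 5 higher after quantile normalization, against 19.8% of all genes, and 5 without FLAG-CTCFL replicate 2.

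Of 5 genes tied to meiotic cohesin 2 were called higher and 2 lower, against 12.5% and 18.4% of all genes. Sgo2a among them codes for a guard of cohesin and not for a subunit. Rec8, which replaces Rad21 in meiosis, rose by 0.42 ± 0.04 although 14 of its 20 neighbours on chromosome 14 were called lower. Stag3 rose by 0.20 ± 0.05, Smc1b fell by 0.69 and Sgo2a by 0.44 (limma adjusted p of at most 0.00416 for these 4, but 0.0629 for Sgo2a with no variance shared between genes), and Rad21l, under the background level of 7.63 in both groups, did not pass.

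Proteins known to bind CTCF or CTCFL, or to work with them, were coded by 22 listed genes, of which 20 had a probe set of their own. Of these 5 were called higher and 4 lower, with a median of 0.02. The shares over all genes were 12.5% higher and 18.4% lower, and over the bright genes 17.6% and 31.0%. The lower calls were near the share of all genes and below that of the bright genes. The higher calls lay above both shares, and no test was made of that. Brd2, a bromodomain protein found with CTCF at boundaries, gave 10.95, 10.80 and 10.93 in FLAG-CTCFL cells, against 10.59, 10.67 and 10.62 in control vector cells (0.27 ± 0.05, SE; limma adjusted p = 0.00089). Yy1, a zinc finger protein of promoter and enhancer contacts (0.16), Setd1a, a methyltransferase of H3K4 (0.16), Taf3, a subunit of TFIID (0.14), and Ddx5, an RNA helicase (0.12), made up the other calls. Each of these 4 calls was lost when some single arrays were left out. That of Yy1 (adjusted p between 0.0657 and 0.161) and that of Ddx5 (between 0.0705 and 0.207) were lost without any array other than FLAG-CTCFL replicate 2. That of Setd1a was lost without FLAG-CTCFL replicate 3 (0.0671) or control vector replicate 1 (0.0596), and that of Taf3 without control vector replicate 1 (0.0501) or 3 (0.0663).

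Chd8, a chromatin remodeller that binds CTCF, had the widest fall of the list, with 9.52, 9.48 and 9.63 in FLAG-CTCFL cells, against 10.09, 10.28 and 10.20 in control vector cells (-0.65 ± 0.06, SE; limma adjusted p = 1.3e-06). It lies on chromosome 14, and 9 of its 20 neighbours were called lower and 0 higher. Prmt7, an arginine methyltransferase described with CTCFL, gave 9.90, 9.87 and 9.83 in FLAG-CTCFL cells, against 10.36, 10.35 and 10.34 in control vector cells (-0.48 ± 0.04, SE; adjusted p = 1.33e-06). Its neighbours on chromosome 8 had a median of 0.02, with 4 called higher and 4 lower, and 1 of them had a larger fall. Parp1, which modifies CTCF with ADP-ribose, gave 11.32, 11.09 and 11.23 in FLAG-CTCFL cells, against 11.45, 11.54 and 11.42 in control vector cells (-0.26 ± 0.06, SE; adjusted p = 0.00383, and 0.0959 with no variance shared between genes). Ldb1, a looping cofactor, was at -0.15 (adjusted p = 0.0262), a call lost when any single array but FLAG-CTCFL replicate 1 was left out (adjusted p between 0.0579 and 0.108). Quantile normalization (0.0844) and centring on array medians (0.084) or on the bright genes (0.214) also removed the Ldb1 call. After quantile normalization 8 of the 20 were called higher, against 19.8% of all genes.

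**Figure D5:**
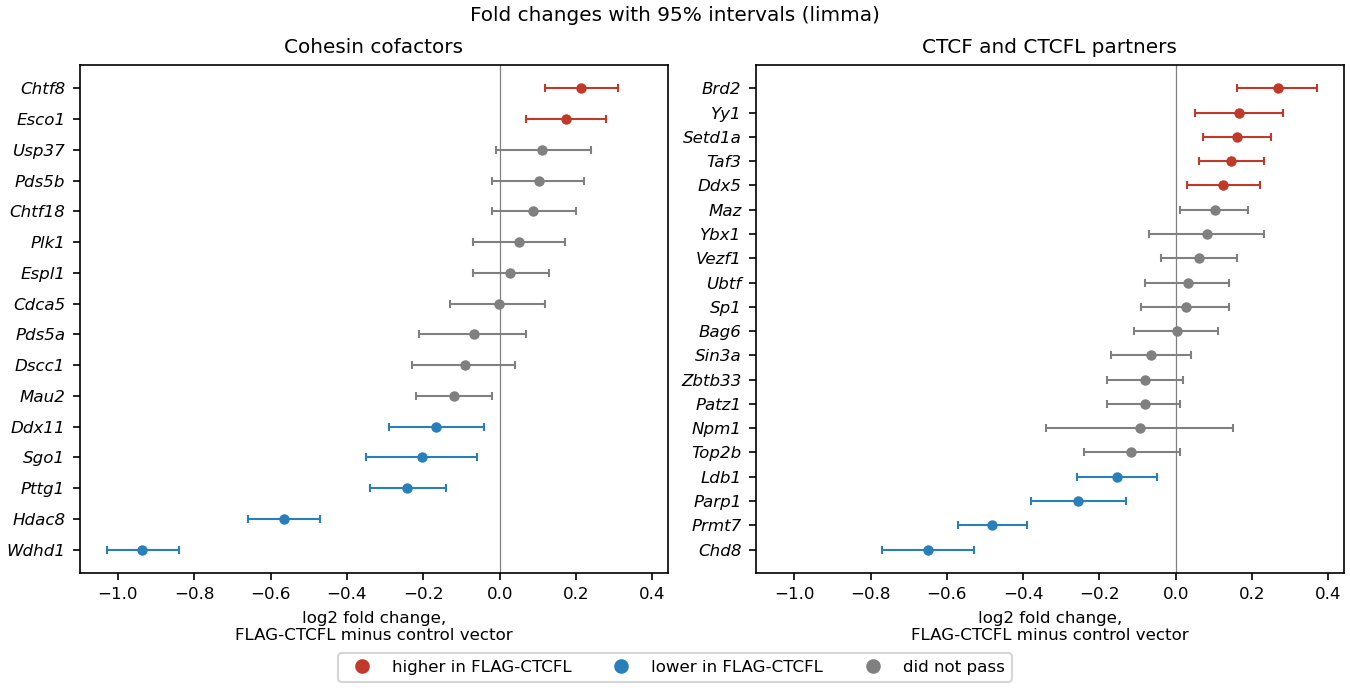
Log2 fold change (horizontal axis, FLAG-CTCFL minus control vector, with 95% limma intervals) of the 16 cohesin cofactor genes on the left and the 20 CTCF and CTCFL partner genes on the right, with calls higher in FLAG-CTCFL in red, lower in blue and genes that did not pass in grey. Wdhd1, Hdac8, Chd8 and Prmt7 stand apart at the low end.

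Markers were read for the labelled cell type and for others a culture could hold. The calls among them stand against 12.5% higher and 18.4% lower over all genes, and 17.6% and 31.0% over the bright genes. All 10 ES cell markers were above the background level of 7.63 in both groups, and their mean log2 signal per array was 11.93 to 12.07 in FLAG-CTCFL cells and 12.19 to 12.21 in control vector cells, with 1 called higher and 5 lower. The mean over 8 fibroblast markers was 8.37 to 8.46, against 8.41 to 8.44 (1 higher, 1 lower), over 7 endoderm markers 7.90 to 7.96, against 7.87 to 7.90 (2 higher, 0 lower), over 6 neural markers 8.37 to 8.39, against 8.28 to 8.36 (2 higher, 1 lower), and over 11 germ cell markers 8.57 to 8.63, against 8.48 to 8.51 (2 higher, 0 lower). At or below the background level in both groups were 3 of the fibroblast, 2 of the endoderm, 1 of the neural and 2 of the germ cell markers. Their part in the results above was not tested.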

How the data were processed

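RNA (200 ng per sample) from 3 FLAG-CTCFL and 3 control vector cultures was labelled and hybridised, per the labels' protocols and the series' design text. The authors deposited a single table of log2 signal. The log2 scale was inferred from values between 5.73 and 14.56, and how the authors corrected, summarised and normalized them is not given in the sources used here. Any shift common to all genes could have been removed by that step. The SD over an array was 1.41 to 1.47, lowest in FLAG-CTCFL replicate 2.

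Of 34760 probe sets 21640 carried 1 symbol, 1321 several and 11799 none in the platform annotation. Entrez IDs brought 21553 of them to current symbols in RefSeq's GRCm38.p6 table, and 87 kept the annotated name. For 19937 genes the probe set of highest mean was fitted with limma 3.58.1 (R 4.3.3), using lmFit and eBayes with the group alone, two-sided tests and Benjamini-Hochberg adjustment. The procedure was tested on simulated data. Gene order was taken from RefSeq, without coordinates, as the arrays' build is not stated. Precision is limited by the number of arrays. No scan date or other batch was examined.

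Members, lists and alternatives were chosen with earlier results of these data known. All members were named, with the 3 genes closest in pattern to each called member. From the lists other than the marker lists all called genes were named. Uncalled genes of these lists were picked once their values were seen, and marker lists are given mostly as counts. Alternatives comprised a replicate block, quantile normalization, array medians, dim-gene filters, probe set rules, variance models, array weights, a threshold of 0.1, leaving out each array and, chosen after seeing the data, centring on bright genes. Python 3.11.15 with matplotlib 3.10.9 drew the figures.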

Additional observations from a re-analysis of the deposited data

How the results depend on the processing

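The rises of Ctcfl (3.40 to 3.51) and Stag1 and the fall of Esco2 kept their direction and side of the threshold under all alternatives run, and no call of a named gene turned to the opposite direction. The count of members called higher, always with Ctcfl in it, was 2 as deposited, 5 after quantile normalization, 4 with array weights, 4 after centring on the bright genes, and 2 to 4 with 1 array left out. That of members called lower was 2 as deposited and 1 after quantile normalization, after centring on array medians or on the bright genes, and with no variance shared between genes, and 1 to 2 with 1 array left out. Cofactors called higher (2) were 5 after quantile normalization, 6 with array weights, 4 after centring on the bright genes, 1 with no shared variance, and 1 to 5 with 1 array left out. Cofactors called lower (5) were 3 after centring on array medians or bright genes and with no shared variance, and 3 to 6 with 1 array left out. Partners called higher (5) were 8 after quantile normalization, 9 with array weights, 3 with a variance trend, 3 with no shared variance, and 1 to 6 with 1 array left out. Partners called lower (4) were 2 with no shared variance and 3 to 4 with 1 array left out. Uncalled genes changed sign as follows: Ctcf (-0.01 with array weights, -0.02 to 0.04 with 1 array left out), Smc3 (0.06 after quantile normalization, 0.01 after centring on array medians, 0.01 with array weights, 0.05 after centring on bright genes, -0.06 to 0.05 with 1 array left out) and Nipbl (0.01 after quantile normalization, -0.12 to 0.02 with 1 array left out), and so did the marker Mael (0.0039 with array weights). Over all genes, calls were 12.5% higher and 18.4% lower as deposited, 19.8% and 16.6% after quantile normalization, and 15.6% and 12.2% after centring on bright genes. The cause of these shifts was not tested beyond the array values given above. With the replicate block, which rests on a number alone (the deviations of same-numbered arrays correlated at 0.13, -0.2 and -0.02, and 0 of 3 FLAG-CTCFL arrays correlated best with their own number), 5979 genes were called instead of 6161; the members' calls were the same (Ctcfl 3.45), and those of Ddx11 (adjusted p = 0.053), Ddx5 (0.0719) and Gata6 (0.0558) were lost.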
